A study of Drosophila melanogaster with 2 samples.

Results

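Summits at divergent protein-coding promoters are the Sob-eGFP ChIP-seq peak summits that lie between start sites of 2 protein-coding genes transcribed away from each other. A summit was counted when the nearest protein-coding transcription start site (TSS) of a minus-strand gene on its left and that of a plus-strand gene on its right belonged to different genes and were both within 1000 bp. Start sites of all annotated transcripts were used, so a paired TSS can be an alternative start and a summit can lie within a gene. With only the TSS at each gene's 5′ end, 879 summits met the rule. The rule used position alone and no signal. It was met by 1184 of the 7002 peaks in the main list, the larger of the lists deposited for the replicates together, and these summits fell between 1099 gene pairs. Among the 7001 peaks on the main chromosome arms, divergent summits made up 16.9% (95% Wilson interval 16.1 to 17.8%). A further 1524 summits lay upstream of a single gene within the same distance, 1473 were elsewhere within 1000 bp of a protein-coding TSS, and 2820 were farther away.

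The series mapped where Sob, from the odd-skipped group of zinc-finger transcription factors, binds the genome in whole Drosophila melanogaster embryos collected from 0 to 24 h. The flies were of the strain sob-GFP, with an insertion that targets sob and yields a Sob-eGFP fusion, and chromatin sheared by sonication to 200 to 800 bp was precipitated with an antibody against GFP. There was 1 group with 2 biological replicates from the same strain, a control library is named in the labels, and no untagged or other genotype was part of the comparison. Whole embryos pool all tissues over all of embryogenesis, so binding in a few cells and weak binding in many cannot be told apart, and peak lists carry no expression values with which to check the tissue.

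A divergent promoter is a stretch of DNA from which polymerase starts in opposite directions into neighbouring genes that lie head to head. In the compact fly genome such arrangements are common, and many of the genes involved serve every cell: ribosome, mitochondrial and RNA-processing genes are typical. The core promoters of such genes usually lack a TATA box and instead carry elements such as the DNA replication-related element (DRE), bound by DREF and overlapping the site of the insulator protein BEAF-32, and Motif 1, bound by M1BP. GAGA repeats, bound by the GAGA factor Trl, are more typical of developmentally regulated promoters.

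The sequences below run from the left TSS to the right TSS of short gaps, on the plus strand of the RefSeq release 6 genome, which has the dm6 coordinates of the peaks. The first 4 are those of the gaps of up to 300 bp with no other coding TSS inside that held the strongest divergent summits, shown because signal and base composition at such summits recur in the results. In these 4 the capitals mark the 31 bases centred on the summit. They are the gaps of Tcs5/CHMP2B (chr3L:5139395-5139619), CG7601/CIA30 (chr3R:29736745-29736965), Art3/mRpS10 (chr3R:15229408-15229665) and Atat/Shc (chr3L:9426758-9427010).
Tcs5/CHMP2B: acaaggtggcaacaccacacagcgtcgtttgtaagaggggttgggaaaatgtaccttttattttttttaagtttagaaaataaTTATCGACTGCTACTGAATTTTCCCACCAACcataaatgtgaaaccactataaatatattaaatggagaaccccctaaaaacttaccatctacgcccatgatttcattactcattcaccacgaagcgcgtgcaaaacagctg
CG7601/CIA30: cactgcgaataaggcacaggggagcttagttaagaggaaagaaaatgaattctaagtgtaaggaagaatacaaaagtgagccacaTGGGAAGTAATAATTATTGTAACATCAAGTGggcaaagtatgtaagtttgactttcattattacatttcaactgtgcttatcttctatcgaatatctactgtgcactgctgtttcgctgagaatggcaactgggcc
Art3/mRpS10: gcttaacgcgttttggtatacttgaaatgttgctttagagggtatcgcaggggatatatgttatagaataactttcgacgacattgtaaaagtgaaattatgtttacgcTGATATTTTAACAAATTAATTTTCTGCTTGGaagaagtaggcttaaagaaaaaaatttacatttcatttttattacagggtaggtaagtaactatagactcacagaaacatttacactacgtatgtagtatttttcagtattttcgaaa
Atat/Shc: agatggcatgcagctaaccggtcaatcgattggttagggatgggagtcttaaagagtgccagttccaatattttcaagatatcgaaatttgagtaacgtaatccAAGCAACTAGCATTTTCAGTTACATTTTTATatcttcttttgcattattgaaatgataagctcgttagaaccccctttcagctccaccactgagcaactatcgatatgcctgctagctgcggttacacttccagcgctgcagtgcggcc

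The 101 bases around these summits hold 25.7%, 31.7%, 26.7% and 27.7% G and C in the order printed, less than the printed gaps as a whole, which hold 38.2%, 38.5%, 30.2% and 43.1%. The Tcs5/CHMP2B gap holds CAGTAGC, a short core of the odd-skipped family motif, on the minus strand 3 bp from the summit, along with TATAAA 36 bp away. The Atat/Shc gap holds a DRE (TATCGATA), but 87 bp from the summit, and TATAAA 14 bp from it. The CG7601/CIA30 and Art3/mRpS10 gaps hold neither TATAAA nor a DRE.

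The next 3 gaps are shown as strong examples of summits with a promoter element within 50 bp, the DRE in 2 gaps and the Motif 1 core GGTCACAC in 1, and the capitals mark that element. The DRE begins at base 53 of the RpS25/CG4820 gap (chr3R:11216287-11216535) and at base 5 of the CG3337/Nelf-A gap (chr3R:21223584-21223704), where annotated genes also cover 81 of the bases between the TSSs. The Motif 1 core lies on the minus strand of the fs(1)h/mys gap (chrX:8061436-8061645), 6 bp from the summit.
RpS25/CG4820: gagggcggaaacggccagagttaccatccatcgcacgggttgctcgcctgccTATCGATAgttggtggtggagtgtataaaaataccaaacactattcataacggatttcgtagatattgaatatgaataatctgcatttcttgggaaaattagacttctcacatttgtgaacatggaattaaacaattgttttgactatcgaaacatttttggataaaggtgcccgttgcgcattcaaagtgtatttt
CG3337/Nelf-A: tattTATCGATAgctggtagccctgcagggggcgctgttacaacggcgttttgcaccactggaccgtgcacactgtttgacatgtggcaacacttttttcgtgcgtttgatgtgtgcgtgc
fs(1)h/mys: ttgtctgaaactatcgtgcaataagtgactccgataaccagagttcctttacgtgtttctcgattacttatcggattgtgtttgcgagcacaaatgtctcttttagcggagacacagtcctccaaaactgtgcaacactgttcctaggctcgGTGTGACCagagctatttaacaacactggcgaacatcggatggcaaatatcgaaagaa

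These 3 summits were weaker than the 4 above. RpS25, a protein of the small cytoplasmic ribosomal subunit, shared with CG4820 a summit of signal 386.2. Nelf-A, a subunit of the factor that holds polymerase in promoter-proximal pausing, shared one of 337.7 with CG3337. The summit between fs(1)h, a BET bromodomain protein, and mys, the beta subunit of integrin, had 280.0. The signal is the authors' value for each peak, deposited with no stated scale, and a single peak has no error of its own.

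Divergent summits took a share of the peaks far above their share of the genome. Bases that meet the rule made up 1.20% of the main arms (1607588 of 133880608 bp), and the density of summits there was 0.737 per kb, against 0.0523 per kb over all main-arm bases, a ratio of 14.1. The replicates' own thresholded lists gave ratios of 18.7 and 14.9. The ratio depended on the limit in the rule, at 22.9 with 500 bp and 7.20 with 2000 bp. No density was computed for bases upstream of single genes, so the ratio cannot be called particular to divergent gaps among promoters. Replicate 1's own list held 1004 divergent summits among 4477 main-arm peaks (22.4%) and that of replicate 2 held 828 among 4626 (17.9%), a mean of 20.2% ± 3.20 (SD, n = 2). The genome holds 3316 gene pairs between which the rule can be met, and 33.1% of them (95% Wilson interval 31.6 to 34.8%) had a divergent summit.

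Divergent summits also had the highest median signal of the 4 classes. Their median signal was 180.1 (quartiles 122.1 and 305.1), against 148.0 for summits upstream of a single gene, 116.3 for the other summits near a coding TSS and 122.8 for summits farther away. The median of divergent summits was 1.35 times that of all main-arm summits and 1.22 times that of single-gene upstream summits. Within the replicates' own lists these ratios were 1.26 and 1.19 against all summits, and 1.19 and 1.12 against single-gene upstream summits, so divergent summits had the higher median in each comparison, while in the main list the quartiles of the classes overlapped. Divergent summits lay closer to a TSS than single-gene upstream ones, at a median position of −72 bp from the nearest coding TSS, against −165 bp, where negative is upstream. In a comparison added after the data were seen, limited to summits 50 to 150 bp upstream of the nearest coding TSS, the median was 201.4 over 614 divergent summits, against 158.3 over 458 single-gene upstream summits. There, replicate 1's own list gave 122.6 against 104.8, and replicate 2's gave 114.6 against 98.8.

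The share of divergent summits was highest among the strong peaks of each list. With each list cut by signal into 10 classes of equal size, it was 30.4% in the strongest class of the main list (213 of 701 summits) and 7.14% in the weakest (50 of 700). Replicate 1's own list gave 33.0% and 12.53%, and replicate 2's gave 26.8% and 10.2%. Of the 100 strongest peaks, 34 were divergent in the main list, 34 in the own list of replicate 1 and 30 in that of replicate 2.

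**Figure D1:**
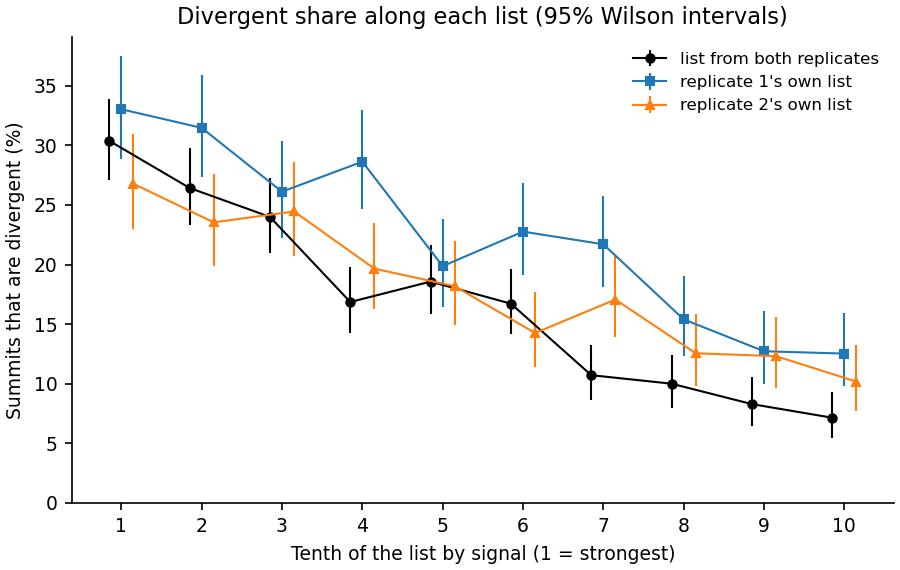
The horizontal axis gives 10 classes of equal size of each list by signal, with the strongest at 1, and the vertical axis the percentage of summits that are divergent, with 95% Wilson intervals as bars. The share was 30.4% in the strongest class of the main list and 7.14% in the weakest, and both replicates' own lists were also highest at the strong end.

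The strongest divergent summits were called in both replicates. The highest lay between Ugalt, which encodes the UDP-galactose transporter, and eIF2Bbeta, a subunit of the exchange factor of translation initiation (chrX:2703688-2704088), with a signal of 3525. In the replicates' ranked lists it had 1951 and 1598, and it took place 3 in the main list and in each replicate's own. Its summit was 42 bp from the Ugalt TSS and 677 bp from that of eIF2Bbeta, so it sat at 1 edge of a gap of 719 bp. The next lay between mRpL41, a protein of the mitochondrial ribosome, and CG8079 (chr2R:15217564-15217969), with a signal of 3389 and with 1927 and 1485 in the replicates. It was 137 bp from the mRpL41 TSS, again nearer to 1 side of a wide gap of 762 bp.

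Summits 3, 4 and 6 in strength lay well inside gaps of 220 to 257 bp, and summit 5 is not described here. The summit between Tcs5, an enzyme subunit of tRNA threonylcarbamoylation, and CHMP2B, an ESCRT-III protein of membrane scission, had a signal of 2612, with 1589 and 1041 in the replicates. It was 98 bp from the Tcs5 TSS and 126 bp from that of CHMP2B. The summit between CG7601 and CIA30, an assembly factor of respiratory complex I, had almost the same values: a signal of 2611, with 1589 and 1044 in the replicates, and distances of 100 and 120 bp. Between Art3, an arginine methyltransferase gene, and mRpS10, of the mitochondrial ribosome, it was 2172, with 1282 and 895.8.

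The rest of the 25 strongest summits included 2 more mitochondrial ribosome genes, mRpL23 (with CG9004, 2012) and mRpS23 (with CenG1A, an ArfGAP gene, 2009). PNPase, a mitochondrial RNA-degrading enzyme, shared a summit of 2162 with Gprk2, a kinase of G-protein-coupled receptors. Chromatin and transcription genes were present too. Chro, a chromodomain protein of interband chromatin, was paired with the TFIIH subunit gene Ssl1 (1868), and brm, the ATPase of the SWI/SNF remodeller, with the small GTPase gene Arl1 (1678). The cohesin regulator gene pds5 was paired with Mppe (1193), and Elp5, of the Elongator complex that modifies tRNA, with CG1275 (1371).

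Other pairs joined genes with different known roles. The tubulin acetyltransferase gene Atat faced Shc, an adaptor of receptor tyrosine kinases (1957), and the Golgi tethering gene fws faced Lamtor3, of the Ragulator complex (1320.45). The kinase gene Mkk4 faced SLIRP2 (1213), RpL7 of the large ribosomal subunit faced Ripalpha (1204), Lon, a mitochondrial protease, faced PIG-F, of GPI-anchor synthesis (1151), and Reps faced the endosomal trafficking gene l(2)gd1 (1286). Also among the 25 were CG13390/CG17294 (1859), Mnat9/CG1792 (1467), CG3437/CG3552 (1404), CG32243/CG11357 (1282), CG8372/CG8360 (1268) and Pdrg1/Pal1 (1224). Every one of the 25 was overlapped by peaks of both replicates' own thresholded lists, and the lowest place any took was 82 in replicate 1 and 101 in replicate 2.

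Among all divergent summits, 62.8% (744; Wilson interval 60.05 to 65.5%) were overlapped by a peak of both replicates' own thresholded lists, against 43.4% of all main-arm summits and 49.3% of single-gene upstream summits. Replicate 1's own list overlapped 80.7% of divergent summits and 60.2% of all summits, and replicate 2's overlapped 71.4% and 61.5%. The deposited conservative list held 82.7% of the divergent summits and 68.4% of all. A peak of replicate 1's list alone was found at 212 divergent summits (17.9%), of replicate 2's alone at 101 (8.53%), and of neither at 127 (10.7%). Over all main-arm summits these shares were 16.8%, 18.2% and 21.7%. Support followed strength: both lists overlapped 99.7% of the 296 strongest divergent summits (signal at least 305.6) and 10.5% of the 296 weakest (signal at most 122.1). In the replicates' longer ranked lists, 1161 of the 1184 divergent summits were overlapped in both, against 6597 of all 7001 main-arm summits.

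Replicate 1 gave the higher signals at divergent summits. The median log2 ratio of replicate 1's signal to replicate 2's was 0.27 (quartiles −0.13 and 0.61), while over all main-arm summits it was −0.003 (quartiles −0.54 and 0.39). For single-gene upstream summits it was −0.03, and for other summits near a coding TSS −0.28. Median signals in the ranked lists were 104.9 in replicate 1 and 86.0 in replicate 2 at divergent summits, against 70.05 and 74.98 over all summits. Read depth is unknown, and its part in this difference was not tested. The replicates' own lists marked 934 and 780 gene pairs and shared 673, which is 72.1% of the pairs of replicate 1 and 86.3% of those of replicate 2.

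**Figure D2:**
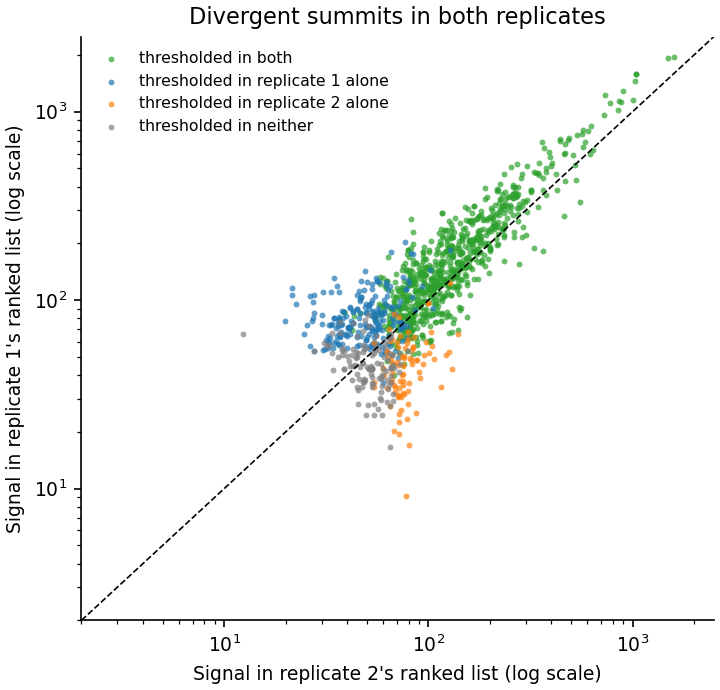
Each point is a divergent summit, with its signal in replicate 2's ranked list on the horizontal axis and in replicate 1's on the vertical axis, both on log scales, coloured by the thresholded lists that overlap it. The dashed line marks equal signals, and the cloud lies mostly above it, with a median log2 ratio of 0.27.

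The summits named here as those whose places in the replicates' lists differed most were all higher in replicate 1. That between Alh and CG10098 stood at place 955 in replicate 1, with a signal of 169.0, and at place 3989 in replicate 2, with 63.6. The others were Pino/TBC1D23 (133.1 and 58.3), wde/CG12935 (131.9 and 59.8) and CROT/CG12877 (122.1 and 57.8), each given as replicate 1 and replicate 2. The main-list signals of these 4 were between 180.2 and 247.7. On the X chromosome 73.6% of the 178 divergent summits were in replicate 1's own list and 55.1% in replicate 2's. On the arms 2L, 2R, 3L and 3R these shares were between 80.0% and 83.1% in replicate 1 and between 68.8% and 79.1% in replicate 2. Shares over all summits of each arm are not given here, so the lower values on X cannot be called particular to divergent summits.

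Divergent summits were found on every main arm. They made up 19.2% of summits on 3R, 17.8% on 2R, 16.5% on 3L, 15.8% on 2L, 14.6% on X and 12.5% on chromosome 4, where there were 2. The share of eligible pairs with a summit was between 28.6% on 2L and 35.9% on 3R, apart from chromosome 4 with 2 of 16 pairs. Median signals of divergent summits were between 187.7 and 193.8 on the autosomal arms other than 4, and 147.4 on X. Medians over all summits of each arm are not given beside them.

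The gap between the paired TSSs had a median of 350 bp over divergent summits, with quartiles of 249 and 553 bp, and spanned 19 to 1603 bp. The medians in the replicates' own lists were 344 and 330.5 bp, a mean of 337.3 ± 9.55 (SD, n = 2). Of the 1184 summits, 161 lay in gaps of up to 200 bp, 313 in gaps over 200 and up to 300 bp, 359 in gaps up to 500 bp, 294 in gaps up to 1000 bp and 57 in wider ones. In 218 cases (18.4%) another protein-coding TSS, such as an alternative start of either gene, lay between the paired TSSs.

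Pairs with TSSs 201 to 300 bp apart were marked most often, where each pair is placed by its shortest gap. Of 225 eligible pairs 201 to 250 bp apart, 56.9% had a divergent summit (Wilson interval 50.4 to 63.2%), and of 287 pairs 251 to 300 bp apart, 56.4% (50.7 to 62.1%). Pairs 151 to 200 bp apart had one in 30.5% (23.5 to 38.5%), those 101 to 150 bp apart in 42.8% (36.0 to 49.8%) and those at most 100 bp apart in 35.9%, so the share did not climb steadily with width. The share was 47.7% for pairs 301 to 400 bp apart, 43.1% up to 500 bp, 35.1% up to 750 bp and 32.5% up to 1000 bp. The same maximum stood in both replicates' own lists, at 50.7% and 45.3% for gaps of 201 to 250 bp, against 24.1% and 25.5% for gaps of 151 to 200 bp and 35.1% and 30.9% for gaps of 101 to 150 bp. In narrow gaps a summit that falls past either TSS is not counted for that gap, and how far this lowers their share was not tested. Beyond 1000 bp the rule itself leaves only part of a gap eligible, and 4.03% of 795 pairs had a summit.

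The signal followed gap width in the same way. Its median was 235.2 in gaps over 200 and up to 300 bp (quartiles 147.1 and 399.7), against 163.9 in narrower gaps, 187.6 in gaps up to 500 bp, 146.0 up to 1000 bp and 149.0 beyond. In replicate 1's own list the median was 146.8 in the gaps of 201 to 300 bp and between 94.0 and 116.0 in the other classes, and in replicate 2's it was 135.7, against 83.6 to 101.7. The quartiles of neighbouring classes overlapped in every list. Leaving out gaps with another coding TSS inside changed the median of the 201 to 300 bp class to 227.2, still above the other classes, which lay between 146.0 and 187.8. Both replicates' own lists overlapped 73.8% of summits in these gaps (Wilson interval 68.7 to 78.4%), against 59.6% in narrower ones and 65.5%, 52.0% and 50.9% in the wider classes.

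**Figure D3:**
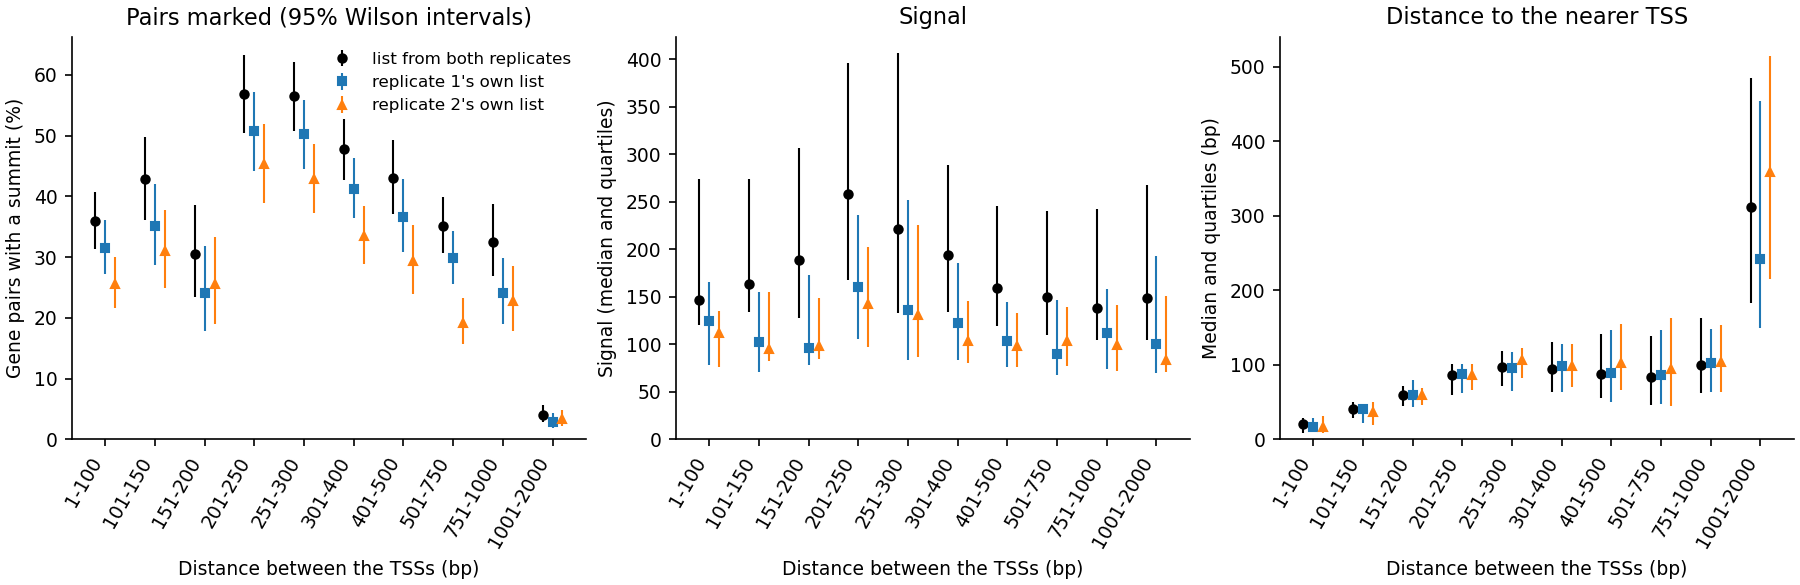
All panels have the distance between the TSSs on the horizontal axis in bp. From the left they show the percentage of eligible gene pairs with a summit (95% Wilson intervals), the signal of divergent summits (median and quartiles) and the distance to the nearer TSS (median and quartiles, bp), for the main list and each replicate's own list. Pairs 201 to 250 bp apart reached 56.9% in the main list, and the median distance to the nearer TSS was between 84 and 100 bp in the main list for gaps of 201 to 1000 bp.

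In gaps of 201 to 1000 bp, summits lay at much the same median distance from the nearer TSS whatever the width of the gap. Over all divergent summits 58.4% (691) lay at least 50 and less than 150 bp from the nearer TSS. The median distance was 33 bp in gaps up to 200 bp, 94 bp in gaps of 201 to 300 bp, 91 bp in gaps up to 500 bp and again 91 bp in gaps up to 1000 bp, while that to the farther TSS was 162, 283 and 573.5 bp in the last 3 classes. In replicate 1's own list the nearer distances in those 3 classes were 93, 94.5 and 97.5 bp, and in replicate 2's 95, 100 and 99 bp. In the 57 gaps over 1000 bp, of which the rule takes only part, the nearer TSS was at a median of 312 bp (quartiles 183 and 485 bp), with 242.5 and 359 bp in the replicates' own lists.

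A summit placed anywhere in a gap with equal probability would fall in the central 33.3% of its length in 33.3% of cases. In gaps of at most 1000 bp 36.5% of summits did so (411 of 1127; Wilson interval 33.7 to 39.3%), and the share depended on width. In gaps of 201 to 300 bp the share was 62.0% (56.5 to 67.2%), in narrower gaps 45.3% (37.8 to 53.1%), in gaps up to 500 bp 30.9% (26.4 to 35.9%) and in gaps up to 1000 bp 11.2% (8.10 to 15.3%). Beyond 1000 bp, where the rule itself keeps summits away from the ends, it was 40.4% (28.6 to 53.3%). Replicate 1's own list gave 59.6% in gaps of 201 to 300 bp and 14.0% in those of 501 to 1000 bp, and replicate 2's gave 64.5% and 11.0%. Of the 25 strongest summits, 18 were in the central part of their gap, 15 had gaps of 201 to 300 bp and 21 lay at least 50 and less than 150 bp from the nearer TSS.

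**Figure D4:**
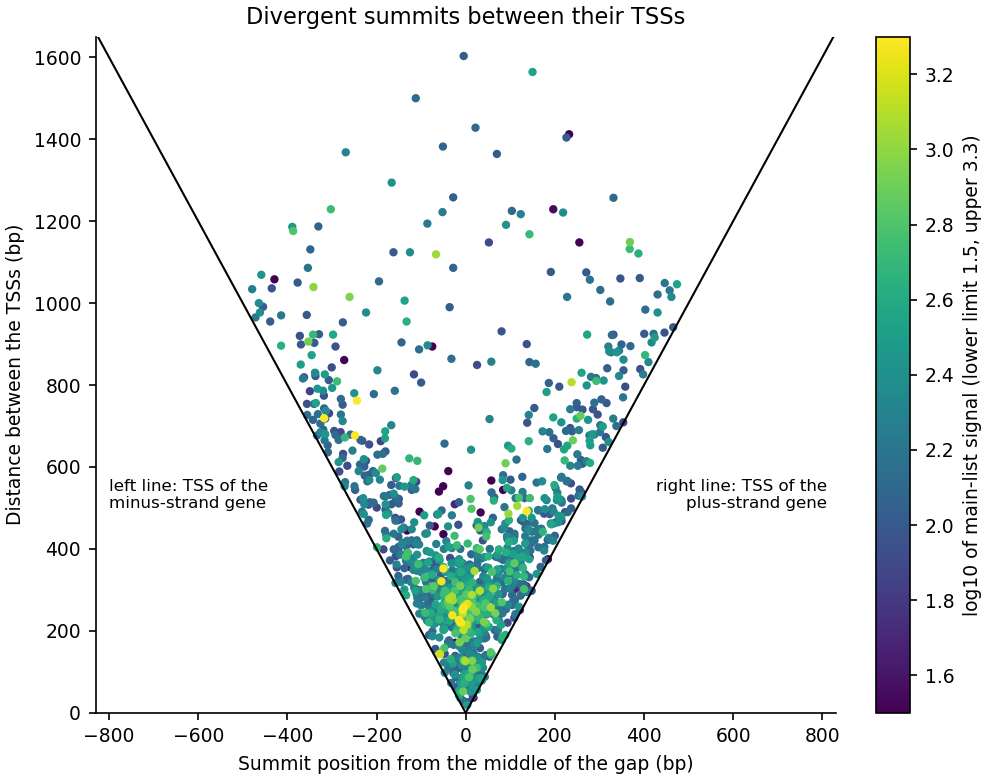
Each point is 1 of the 1184 divergent summits, placed by its distance from the middle of its gap (horizontal axis, bp) and the distance between the TSSs (vertical axis, bp), and coloured by the log10 of its signal. The black lines mark the TSSs. Points form a single central cloud in gaps up to about 300 bp and follow the lines in wider gaps, and the brightest points gather between 200 and 300 bp.

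In 49 gaps more than 1 summit was found, 2 in 48 of them and 3 in the gap between CG17574 and bic, which is 826 bp wide. These gaps had a median width of 538 bp, and 28 were wider than 500 bp. The outermost summits lay a median of 80.5 bp from the TSS on their own side (quartiles 46.5 and 137.5 bp). Examples are Trmt6, a tRNA methyltransferase subunit, and Ent2, whose gap of 665 bp had summits of 767.9 and 161.7, the ribosomal protein gene RpL32 and CG7943 (693.3 and 68.1), Hrd3 and PTPMT1 (617.9 and 456.9), and Ino80, a chromatin remodelling ATPase, and Aptx (605.0 and 49.97). Both Hrd3/PTPMT1 summits were matched to the same peak in each replicate, at place 222 in replicate 1 and 319 in replicate 2. The replicate values therefore cannot show 2 separate peaks there. Whether the summits of the other gaps are separate in each replicate was not tested. The spacing of the outermost summits had a median of 208 bp, and none was below 199 bp. In 25 of the 49 gaps the spacing was at most 210 bp. No gap of up to 200 bp held more than 1 summit, but summits at least 199 bp apart could not both lie inside such a gap.

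The shape of the peaks limits how finely these positions can be read. Of the divergent peaks 789 (66.6%) were exactly 380 bp wide, the widths spanned 95 to 430 bp, and in 805 (68.0%) the summit was at the peak's centre within 1 bp.

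At the narrow end, the summit in the gap of 19 bp between MED6, a Mediator subunit, and Naa80 had a signal of 305.6, with 170.1 and 130.8 in the replicates. The next were CG13742/Dbp45A (26 bp, 86.5), MrgBP/Ggamma1 (29 bp, 148.2), CG8089/CG7544 (36 bp, 143.5) and phol/CG3552 (37 bp, 12.004). Of these 5, MED6/Naa80 and MrgBP/Ggamma1 were in both replicates' own lists. At the wide end, CG9921 and the HMG-box gene Dsp1 (1564 bp) had a summit of 352.0, with 202.1 and 159.6 in the replicates. CG9281/CG15601 (1603 bp) had 104.0, CG11594/Gr64a (1500 bp) 132.5, FoxK/mRpL2 (1428 bp) 128.9 and CG6333/Oatp74D (1404 bp) 104.4. Each of these widest gaps had at least 1 other coding TSS inside.

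The limit of 1000 bp applied to the farther TSS. The members nearest to it lay 997 bp from the farther TSS (Spred and the insulator gene BEAF-32, signal 346.8), 996 bp (CG11583/CG1316, 190.7) and 993 bp (CG6005/CG14285, 277.2). The first summits beyond it lay 1005 bp from the farther TSS (Or9a/Neb-cGP, 217.1, and Mtpbeta/ken, 151.9) and 1007 bp (msn/RpL8, 130.4). In all 3 members inside the limit the nearer TSS was 38 to 76 bp away.

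Mean G and C content was lowest at divergent summits among the 4 classes, by less than its SD, while the flanks of divergent summits had the highest. The 101 bases around a divergent summit held 36.2% ± 10.4 G and C (SD over 1184 summits), against 37.9% ± 10.7 for summits farther than 1000 bp from a coding TSS, 40.02% ± 11.4 for single-gene upstream summits, 44.0% ± 10.6 for other summits near a coding TSS and 39.4% ± 11.1 for all. Windows 500 bp to either side held 48.4% ± 7.29 around divergent summits, against 42.2% ± 7.95 around single-gene upstream ones and 42.4% ± 7.95 around all. With a median gap of 350 bp, the windows of divergent summits often lay past the paired TSSs. The classes therefore differ by definition in what their flanks hold, and the part of this in the difference was not tested. The 296 strongest divergent summits had 31.5% ± 10.2 and the 296 weakest 38.5% ± 10.3, and the 25 strongest had 27.9% ± 8.56. By gap, the content was 31.0% ± 9.004 in gaps of 201 to 300 bp and 42.1% ± 10.7 in narrower ones. At the midpoints of eligible gaps, the content was 30.2% ± 9.92 for 953 gaps whose pair was marked and 36.6% ± 11.6 for 1956 whose pair was not. These groups also differ in width, with medians of 329 and 687 bp. How far base composition or width moves the peak signal was not tested.

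The DRE, the binding site of DREF, was found within 50 bp of 81 divergent summits. That is 6.84% (Wilson interval 5.54 to 8.42%), against 3.81% (2.96 to 4.89%) of single-gene upstream summits, 2.17% of other summits near a coding TSS and 0.177% of summits farther away. Over all main-arm summits the share was 2.51%, and over all 19607 coding promoters, in a window of the same 101 bp centred 100 bp upstream, it was 2.28%. In windows 500 bp to either side of divergent summits, which often lay past the paired TSSs, it was 0.633%. The own lists gave 8.07% in replicate 1 and 5.80% in replicate 2 for divergent summits, against 4.27% and 3.57% for single-gene upstream ones. Shares of this and the other motifs were not matched for distance to a TSS. Divergent summits lay at a median of −72 bp and single-gene upstream ones at −165 bp, and the promoter window left out the 50 bp next to the TSS.

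Motifs were sought on both strands as exact letters, and DRE (TATCGATA) contains CGATA, the core of the BEAF-32 site, on each strand. CGATA itself lay within 50 bp of 389 divergent summits, 32.9%, against 23.1% of single-gene upstream summits, 18.6% of all summits and 19.5% of coding promoters. The Motif 1 core GGTCACAC was at 35 divergent summits (2.96%; 2.13 to 4.08%), against 2.56% of single-gene upstream summits, 1.59% of all summits and 1.24% of coding promoters. TATAAA was at 235 (19.8%), against 14.8% of single-gene upstream summits, 15.2% of all and 16.3% of coding promoters. The GAGA repeat GAGAGAG was rarer at divergent summits, with 11 (0.929%), against 4.07% of single-gene upstream summits, 2.44% of all summits and 4.46% of coding promoters. Divergent gaps themselves give a closer comparison. At gap midpoints TATAAA was found in 28.5% of 953 gaps of marked pairs and 21.2% of 1956 gaps of unmarked pairs, and GAGAGAG in 0.630% and 1.38%. GAGAGAG was in 1.22% of the windows 500 bp to either side of divergent summits, which often lay past the paired TSSs. The DRE was at 1.89% (1.20 to 2.97%) of the midpoints of marked pairs and 1.28% (0.867 to 1.88%) of those of unmarked pairs. For CGATA these shares were 16.9% (14.6 to 19.4%) and 15.2% (13.7 to 16.8%), and for the Motif 1 core 0.944% and 0.613%. The intervals overlapped for each of these elements, and a midpoint need not be where the summit lies.

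For the other elements the shares of divergent summits and of all summits lay closer together. CAGCTG, the E-box core of Motif 5, was at 6.33% of divergent summits and 4.94% of all summits, with 5.50% of coding promoters, and GTATNTTT of Motif 6 was at 5.83%, 4.81% and 5.23%. A run of 8 A or T bases of 1 kind was at 6.67%, 6.24% and 6.30%, the E-box CACGTG at 0.929%, 1.16% and 1.01%, and the Zelda site CAGGTAG at 0.422%, 0.443% and 0.658%. CAGTAGC, the short core of the odd-skipped family motif, was at 9 divergent summits, 0.760% (0.400 to 1.44%), against 0.743% of all summits and 0.724% of coding promoters. The longer form ACAGTAGC was at 0 of 1184, which by the Wilson interval allows up to 0.323%, against 0.129% of all summits and 0.173% of coding promoters.

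**Figure D5:**
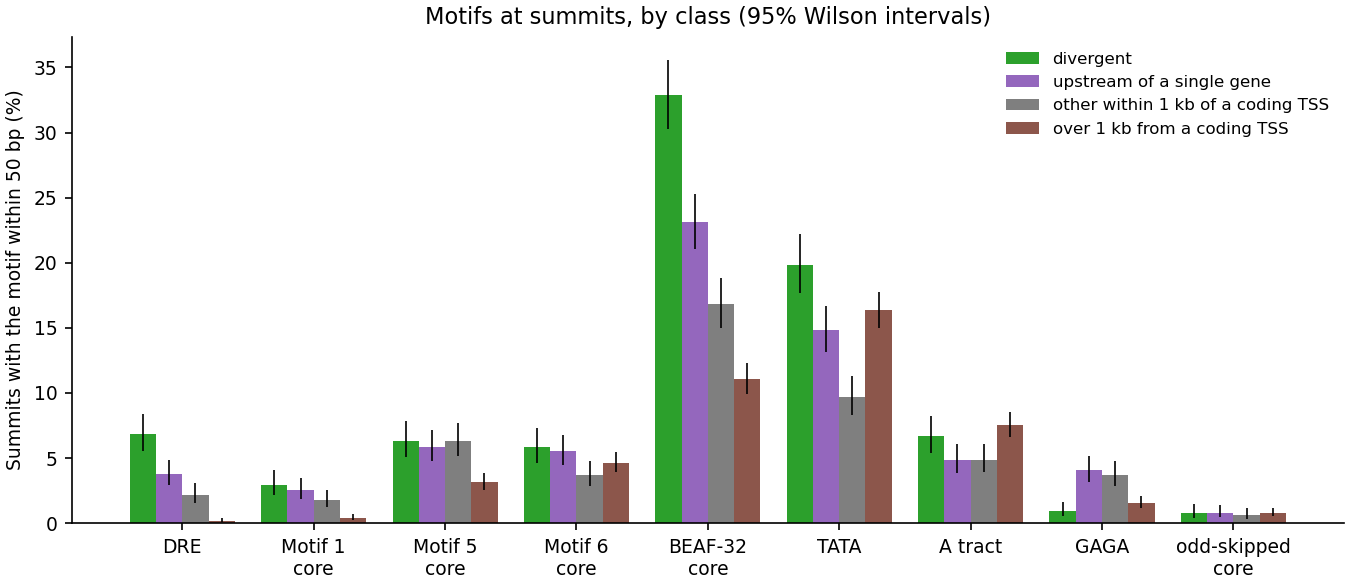
Bars give the percentage of summits with each motif within 50 bp on either strand, with 95% Wilson intervals, for divergent summits and the other classes. Divergent summits stand highest for the DRE (6.84%), the BEAF-32 core (32.9%) and TATAAA (19.8%) and lowest for GAGA repeats (0.929%).

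Promoter elements and signal did not go together in the same direction for all elements. The median signal of the 81 divergent summits with a DRE was 144.7, against 184.6 for the 1103 without, and that of the 35 with the Motif 1 core was 135.7, against 184.6 for the 1149 without. In 4 classes of 296 summits each, the DRE share was 4.05% in the strongest, 6.08% and 8.11% in the next ones and 9.12% in the weakest, and no summit among the 25 strongest had one. With TATAAA the median was 230.9 over 235 summits, against 172.0 without. The share of TATAAA was 31.1% in the strongest of these classes and 15.9% in the weakest. G and C content differed alongside, at 42.9% with a DRE and 35.7% without, and at 28.9% with TATAAA and 38.0% without.

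By gap width the elements divided likewise. In gaps of up to 200 bp the DRE was at 18.0% of summits (12.8 to 24.7%), the Motif 1 core at 9.32%, CGATA at 52.2% and TATAAA at 9.32%. In gaps of 201 to 300 bp these shares were 3.19% (1.74 to 5.78%), 1.60%, 27.8% and 28.4%. In gaps of 301 to 500 bp they were 6.13%, 1.39%, 31.2% and 22.8%. In the narrowest class the median distance was 33 bp to the nearer TSS and 80 bp to the farther one, so the window of 50 bp to either side often reached a TSS.

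The 9 divergent summits with CAGTAGC had signals between 87.4 and 2612. Tcs5/CHMP2B was the strongest, followed by alc, the beta subunit of AMP-activated kinase, with CG8788 (799.3), CG8187 with the vacuolar ATPase gene Vha36-1 (435.0), CG9586 with tai, a nuclear receptor coactivator (357.5), and Galk, galactokinase, with CG5068 (231.7). The others were CG9667 with the lysosomal GTPase gene Arl8 (208.6), IKKbeta, a kinase of the immune response, with CG5013 (188.4), CG14818/Coa8 (138.2) and CG12104/CG18170 (87.4). All but the last 2 were in both replicates' own lists. Their median signal of 231.7 stands beside 179.9 for the 1175 divergent summits without the core.

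The divergent summits touched 2184 protein-coding genes, 15.7% of the 13945 on the main arms. Of all these genes 43.4% (6054) have a neighbour with which the rule can be met, and 36.1% of those genes were at a divergent summit. Gene groups were taken by symbol (19 groups, with the patterns adjusted after their matches were seen). They differ both in how often their genes were eligible in this way and in how often eligible genes were marked, so both are given. A group's share can be read only against these background values. Neither background was matched for gap width, and pairs more than 1000 bp apart were marked in 4.03% of 795 cases. Gap widths were not compared between groups. Each summit was counted for both genes of its pair, whichever TSS was nearer. A gene named below can therefore be the farther one, such as Rrp40, whose TSS was 768 bp from its summit, and Gr64a, at 862 bp.

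Genes of the translation apparatus were frequent. Of 92 genes of the cytoplasmic ribosome 39 were at a divergent summit (42.4%; Wilson interval 32.8 to 52.6%), which is 66.1% of the 59 eligible, with a median signal of 292.4. RpL7 had 1204, RpS27, shared with the nucleoporin gene Nup37, had 1084, and RpL14, shared with Nelf-E of the pausing factor, had 894.7. In replicates 1 and 2 RpS27 had 607.1 and 467.8, and RpL14 had 428.3 and 467.4. Of 73 mitochondrial ribosome genes 30 were marked (41.1%; 50.8% of the 59 eligible), with a median of 180.6. Of 35 aminoacyl-tRNA synthetase genes, whose products charge tRNAs, 15 were marked (42.9%; 57.7% of the 26 eligible). Among them SerRS had 670.7, GluProRS 562.6 and IleRS 431.8. Translation factors did not share this, with 9 of 58 genes (15.5%; 26.5% of the 34 eligible). One of them, eIF2Bbeta, is in the pair of the strongest divergent summit, which lay 677 bp from its TSS and 42 bp from that of Ugalt.

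Of the 19 groups, RNA modification had the highest share of all its genes. Of 28 genes of RNA-modifying enzymes and complexes 14 were marked (50%; 58.3% of the 24 eligible), with Tcs5, Elp5 and Trmt6 at the top. Other groups of RNA synthesis and processing lay nearer the 36.1% of all eligible genes. Of 38 exosome and RNA polymerase genes 11 were marked (28.9%; 40.7% of the 27 eligible), led by the exosome gene Rrp40, which faces the enolase gene Eno (889.8), and Polr2B, a large subunit of RNA polymerase II (860.0). Mediator and TFIID had 14 of 40 (35.0%; 46.7% of the 30 eligible), with MED17 at 719.1, MED27 at 586.8 and Taf5 at 489.6. Of 37 spliceosome genes 12 were marked (32.4%), but 33 of the 37 were eligible and the share among those was 36.4%, next to 36.1% for all eligible genes. U2af50, of the factor that recognises the 3′ splice site, had 501.8.

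Among groups of the cell's compartments, 9 of 21 nuclear pore genes were marked (42.9%; 45% of the 20 eligible). Genes with symbols of the Sec, COG and TRAPP groups, whose products act in protein translocation and vesicle tethering, had 13 of 30 (43.3%; 61.9% of the 21 eligible), and Rab and Vps genes of membrane traffic 24 of 65 (36.9%; 57.1% of the 42 eligible). The only gap whose genes both came from the same group was that of Cog3, of the COG complex, and Sec5, of the exocyst, with a signal of 223.7 and 125.8 and 108.7 in the replicates. Vacuolar ATPase had 9 of 33 (27.3%; 56.3% of the 16 eligible), proteasome 12 of 48 (25%; 40% of the 30 eligible) and respiratory chain 20 of 91 (22.0%; 39.2% of the 51 eligible). Replication and repair had 9 of 41 (22.0%; 28.1% of the 32 eligible) and TIM and TOM import 2 of 15 (13.3%; 40% of the 5 eligible). The Wilson intervals of these last 5 groups include the 15.7% of all genes, and over eligible genes they include the 36.1%. For nuclear pore genes the interval over eligible genes, 25.8 to 65.8%, includes the 36.1% too.

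Tissue-specific groups were at the low end, in shares not matched for gap width. Of 115 cuticle protein genes 0 were at a divergent summit, although 29 were eligible, and by the Wilson interval 0 of 29 allows up to 11.7%. Of 230 chemosensory genes, of odorant, gustatory and ionotropic receptors and odorant-binding proteins, 6 were marked (2.61%; 11.3% of the 53 eligible). Their highest was Or88a, paired with CG12402, with 241.1, followed by Ir60e (212.6) and Gr64a (132.5). The gaps of these genes were 1124, 322 and 1500 bp wide in that order. Of 25 trypsin and lysozyme genes 1 was marked (4%; 7.69% of the 13 eligible), LysX, paired with Aplip1 (163.5) across a gap of 1015 bp. Genes known only by a CG number, 6097 in all, were at a divergent summit in 11.0% of cases and in 30.5% of the 2202 eligible. The odd-skipped family genes odd, sob, drm and bowl had 0 eligible pairs each, so none could have a divergent summit by this rule.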

How the data were processed

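Sob-eGFP ChIP-seq peaks were analysed from 1 group of 2 biological replicates. Per the deposited file lists, the authors called peaks on dm6 against a control and kept those past an irreproducible discovery rate threshold, for each replicate and for both together. The larger list from both replicates was the main list. The signal is the authors' value per peak, deposited with no stated scale. Neither the aligner nor the peak caller is given in the sources used here, and read depth is unknown. No sample column was left unmapped.

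From these lists the summits were set against the start sites of all transcripts of protein-coding genes (Ensembl release 115, annotation 6.54) on the 6 main arms, and motifs were sought in the RefSeq release 6 genome, whose arm lengths hold every peak. Peaks overlapping by at least 1 bp counted as found in a list, and a member's replicate signal is that of the strongest overlapping ranked peak. Wilson 95% intervals cover counting error only, since neighbouring peaks and shared fragments are not independent. No test of difference was run: with 1 group there is no contrast between samples, and spread is given over the 2 replicates, which the labels call biological.

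The members, gene groups and motifs were chosen with earlier results of these data known. Named pairs are the 25 strongest, the 5 narrowest and 5 widest gaps, up to 5 gaps with most summits, pairs within 1 gene group, up to 3 genes a group, the 5 members whose replicate places differ most, those nearest the limit and the odd-skipped genes, of which 2 pairs are not reported here. The gaps whose sequences are printed, and the members with CAGTAGC, were added after values were seen. The rule, overlap, motif and interval code was tested on simulated data and recovered the known answers. Python 3.11.15, pandas 2.3.3, numpy 2.4.6 and scipy 1.17.1 were used. Alternatives were other lists, limits, start sites, overlaps and motif windows.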

Additional observations from a re-analysis of the deposited data

How the results depend on the processing

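Of 116 alternative values over 12 results, 62 stayed within the spread or interval of the main value or, for the count of summits, within 1.5 times of it, and 54 moved by more. The share of summits that are divergent (16.9%) was 20.0% in the conservative list, 17.9 to 22.4% without 1 replicate, 23.3% in the stronger 50% of peaks, 13.1% and 22.0% with limits of 500 and 2000 bp, 12.6% with 1 TSS per gene, 18.6% with genes of any biotype and 13.8% with no TSS between. The density ratio (14.1) was 14.9 to 18.7 without 1 replicate, 19.4 in stronger peaks, 22.9 and 7.20 with the other limits and 16.9 with no TSS between. The share of pairs with a summit (33.1%) was 27.8% (conservative), 23.5 to 28.2% (without 1 replicate), 23.8% (stronger), 34.8% (500 bp), 28.8% (2000 bp), 27.6% with 1 TSS and 27.6% with any biotype. The signal ratio to all summits (1.35) was 1.25 (conservative), 1.19 to 1.26 (without 1 replicate), 1.13 (stronger peaks), 1.46 (500 bp) and 1.27 (2000 bp). That to single-gene upstream summits (1.22) was 1.12 to 1.19 (without 1 replicate), 1.07 (stronger), 1.28 (500 bp) and 1.16 (2000 bp), with 1.27 in the comparison added after seeing the data. The share found in both replicates (62.8%) was 74.5% (conservative), 85.4% (stronger), 66.6% (500 bp), 59.1% (2000 bp), 47.8% (reciprocal overlap of 50%), 59.1% (summits within 100 bp) and 98.1% (ranked lists), with no value when a replicate is left out. The median gap (350 bp) was 332 (conservative), 330.5 to 344 (without 1 replicate), 322.5 (stronger), 298 (500 bp), 449 (2000 bp), 331 (1 TSS), 366 (any biotype) and 327.5 bp (no TSS between). The share in the central part of the gap (36.5%) was 41.0% in stronger peaks and 43.7% at 500 bp. The DRE share (6.84%) was 3.38% and 13.0% in windows of 25 and 100 bp and 5.80 to 8.07% without 1 replicate, and the Motif 1 share (2.96%) was 1.44% and 6.59%. The count of 1184 was between 814 and 1538 in all alternatives, and the CAGTAGC share stayed within the interval of its main value. The cause of each change was not tested. No paired analysis was possible because there is 1 group only. With unknown depth, a gap without a summit cannot be called unbound.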
